A study of Rattus norvegicus with 112 samples.

Results

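The genes described here encode neuropeptide precursors and granins in primary cultures of rat cortical neurons. They were chosen by gene name: a list of 10 genes (Penk, Pdyn, Pnoc, Tac1, Vgf, Sst, Npy, Cck, Vip and Avp) was matched to the probe annotation, and every probe set annotated to 1 of them alone was taken. The array named 9 of the 10 genes, through 15 of its 1263 probe sets other than controls; probe sets named to 1 gene cover 720 genes in all. No probe set was named to Vip. All 15 are reported, and 14 of them lay above the floor on low signals in the continuous and pulse experiments. The exception was 1 of the 3 Avp probe sets, M64785_at.

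Neuropeptides are made as long precursor proteins, which are sorted into dense-core vesicles, cut by processing enzymes and released when a neuron fires strongly. In cerebral cortex most of them mark classes of inhibitory interneurons, and several of their genes are transcribed after synaptic activity and calcium entry. NMDA opens the NMDA class of glutamate receptors, which admit calcium, and long exposure to it can kill neurons.

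The study gave these cultures NMDA, nicotine or a compound called 4R, which the labels describe as a nicotinic antagonist of the non-competitive kind, and measured total RNA on 112 Affymetrix arrays in 10 runs. In the continuous experiment NMDA at 1 mM stayed on for 10, 30, 60, 180 or 360 min until harvest, with 3 arrays in each of these groups and in the control. In the pulse experiment 1 mM NMDA was removed after 10, 30 or 60 min, with harvest after another 24 h, and each of these groups and the control had 4 arrays. A second pulse set had 1 array in each of the same 4 groups, and a further 4 arrays are labelled as repeats of pulse samples. The repeat of replicate 3 of the 10 min pulse held the same values as the original at all 1322 probe sets, within 0.05, so the repeats bring 3 arrays of new values. In the crossed experiment 1 mM NMDA for 60 min, 10 uM nicotine for 18 h, both or neither were given, with 3 arrays each. In the washed-out experiment NMDA at 1 mM for 30 min, nicotine at 10 uM for 18 h, both or neither were followed by 24 h without them, with 5 arrays each. The same samples were hybridized in a first run and a repeat run. A further 3 experiments had 3 treated and 3 control arrays each. One gave 10 uM nicotine during 15 min, with harvest 45 min after washing. The remaining pair gave 2 uM 4R during 18 h, in one of them with 24 h without it before harvest. Replicates are numbered, and culture number below means the replicate number. In the pulse experiment the labels give numbers 3 and 4 the same culture date, so its 4 numbers cover 3 dates, and p-values measure the spread between these samples. Precision is limited throughout by the small number of arrays.

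A signal below is the deposited linear intensity. A difference is treated minus control on the scale of log2(signal + offset), with the standard error (SE) of the fit. A call means an adjusted p of at most 0.05 from limma over the 884 probe sets tested in an experiment. Counts of members below are counts of member probe sets, so a gene with several of them can count more than once. In the fit with culture number as a block, each number is compared with its own control. A second block fit of the pulse experiment, by culture date, treats numbers 3 and 4 as 1 culture and was chosen after the data were seen.

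Neuron markers were present on all arrays: in the pulse experiment the summed signal of 21 probe sets for 10 of 12 listed genes was 150952 to 375400 after the 10 min pulse and 301117 to 354575 in the pulse controls. In the controls of the washed-out repeat run the same sum was 75034 to 332008. The lowest sum of the pulse experiment belongs to replicate 3 of the 10 min pulse. There the 3 interneuron probe sets (Gad1 and Slc32a1) also summed to only 1669, against 6312 to 20220 in the pulse controls. That array correlated with the others of its run at a median of 0.751, and replicate 4 of the 60 min pulse at 0.82. In the continuous experiment replicates 2 and 3 at 10 min (0.896 and 0.911) and replicate 3 at 360 min (0.848) stood apart in the same way, and in the repeat run of the washed-out experiment control replicates 3 (0.2) and 4 (0.588) did. In the crossed experiment replicate 2 of the control (0.919) and of NMDA (0.943) stood apart as well, and in the first washed-out run replicate 5 of nicotine (0.935) and of nicotine with NMDA (0.942). Results without these arrays are given only where stated. All others use all arrays, among them the correlations with other genes. The labels of replicate 1 of the 30 min pulse hold 60 min in 1 field and 30 min in the rest, and it was kept at 30 min. These are bulk samples, in which fewer cells of a type and less RNA per cell cannot be told apart.

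Promoter sequence ran from 250 bases before to 50 bases after an annotated start in RefSeq's GRCr8 assembly. It was available for 6 of the 9 genes, and not for Penk, Pnoc or Cck. It was searched on both strands for the cyclic AMP response element TGACGTCA, its shorter form TGACG, the AP-1 site TGANTCA and the element TGCGTCA. The promoters of Vgf, Sst and Tac1 are shown because these genes are among those with the largest differences after NMDA pulses and because each holds 1 of the longer elements, in capitals.
Vgf: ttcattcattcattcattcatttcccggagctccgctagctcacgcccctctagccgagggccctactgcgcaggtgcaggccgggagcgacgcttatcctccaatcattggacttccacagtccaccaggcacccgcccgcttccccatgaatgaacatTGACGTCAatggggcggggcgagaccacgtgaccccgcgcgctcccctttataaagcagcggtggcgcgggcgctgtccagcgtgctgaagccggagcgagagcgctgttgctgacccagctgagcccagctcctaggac
Sst: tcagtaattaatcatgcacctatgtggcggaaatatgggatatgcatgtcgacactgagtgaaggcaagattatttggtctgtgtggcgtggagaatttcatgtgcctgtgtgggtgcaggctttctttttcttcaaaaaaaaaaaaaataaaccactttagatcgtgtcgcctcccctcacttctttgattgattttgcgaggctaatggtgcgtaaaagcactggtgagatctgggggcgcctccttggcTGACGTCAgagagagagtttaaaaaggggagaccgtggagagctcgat
Tac1: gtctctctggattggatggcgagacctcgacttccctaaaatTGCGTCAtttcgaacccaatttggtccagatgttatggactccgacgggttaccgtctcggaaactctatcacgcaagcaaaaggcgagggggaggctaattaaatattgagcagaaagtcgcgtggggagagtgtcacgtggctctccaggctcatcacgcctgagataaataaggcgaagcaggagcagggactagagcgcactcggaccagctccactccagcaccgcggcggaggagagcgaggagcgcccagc
The Vgf window is chr12:25276971-25277270, minus strand, and its TGACGTCA begins 90 bases before the start. The Sst window is chr11:90461296-90461595, plus strand, where the same 8 letters begin 3 bases after the start used in this table. The Tac1 window is chr4:36645333-36645632, plus strand, with TGCGTCA beginning 208 bases before the start. TGACGTCA occurred in 2 of the 6 promoters, against 1.83% of the 33469 rat promoters in the table, and TGCGTCA in 1 of 6, against 1.9%. TGACG, which lies inside each TGACGTCA and overlaps the TGCGTCA of Tac1, occurred in 4 of 6 (Avp, Sst, Tac1 and Vgf), against 21.2%. TGANTCA occurred in Avp alone of the 6, against 7.33%. A match of letters is a description, not a binding site.

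Penk, Vgf, Pnoc and Tac1 were higher 24 h after NMDA pulses, by 2.22-fold to 3.51-fold in the mean over pulse lengths, while no member passed while NMDA was still present for up to 60 min. Over the mean of the 3 pulse lengths, 13 of the 14 probe sets were higher than control, with a median log2 difference of 0.82, beside a median of -0.07 over all 884 probe sets. Penk, Vgf, Pnoc and Tac1 passed the test in that mean, 4 of 14 probe sets, where 2.71% of all probe sets passed. With culture number as a block the somatostatin probe set K02248cds_s_at passed as well, making 5 of 14 where 3.51% of all passed. With culture date as a block the same number, 5, passed (3.39% of all). Without the 2 pulse arrays that stood apart the mean differences were 1.73 for Penk (adjusted p = 0.0012), 1.59 for Vgf (adjusted p = 0.0269), 1.11 for Pnoc (adjusted p = 0.0337) and 1.05 for Tac1 (adjusted p = 0.0264). In that fit 12 of the 14 probe sets were higher than control, with a median of 0.67, beside -0.13 over all probe sets. No member passed as lower.

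At the single pulse lengths, 2 members passed after 10 min (2.26% of all probe sets), 1 after 30 min (1.36%) and 1 after 60 min (1.58%). With the block these counts were 5 after 10 min (2.94% of all), 2 after 30 min (2.26%) and 3 after 60 min (2.6%). In the continuous experiment limma called 0 of 14 members at 10 min and 0 at 30 min, where 0% of all probe sets passed at either time, 0 at 60 min (0.679% of all), 0 at 180 min (0.452%) and 0 at 360 min (0% of all). At an unadjusted p under 0.05 the members counted 0 at 10, 30, 60 and 180 min and 2 at 360 min. With the block 1 member, Vgf, passed at 360 min, where 1.13% of all probe sets passed. The median member difference was -0.01, -0.12, 0.16, 0.02 and 0.19 at the 5 times in order.

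**Figure D1:**
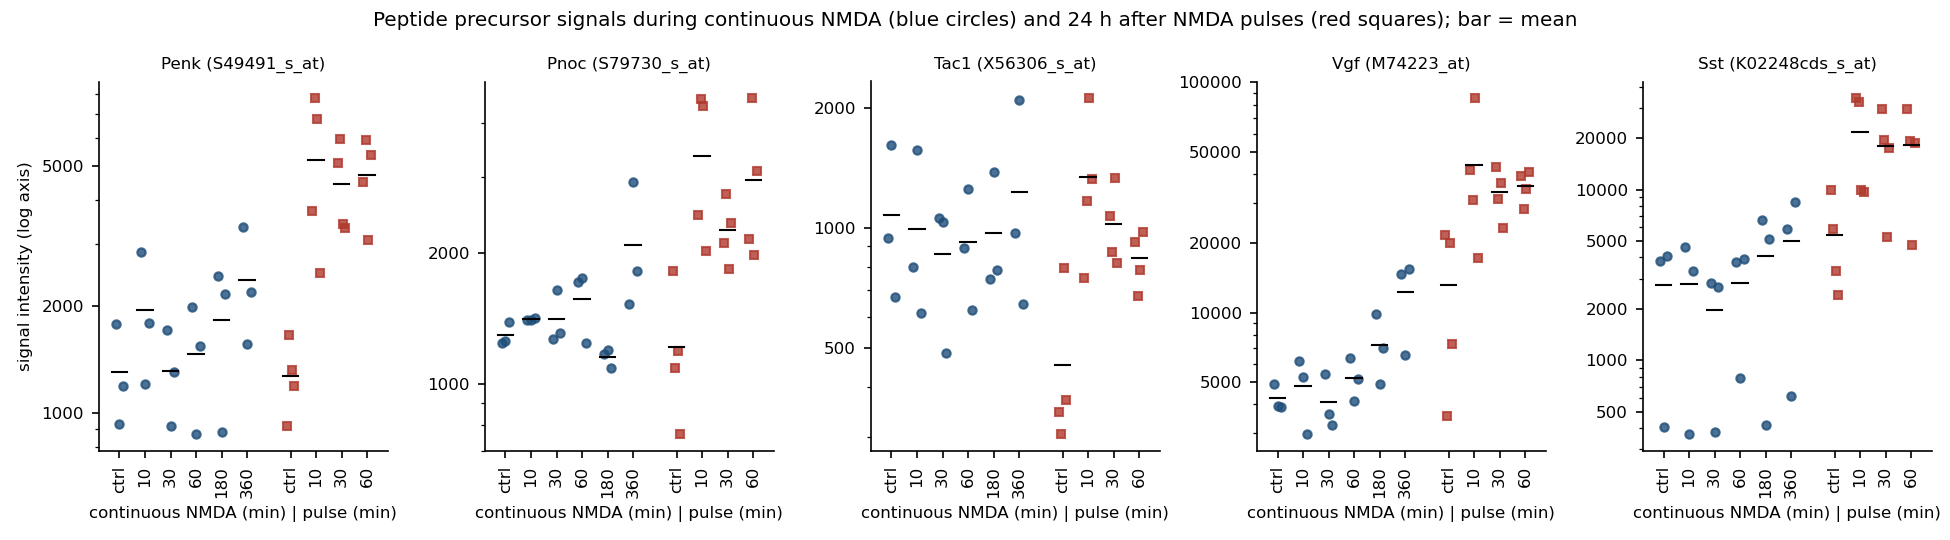
Signal (linear intensity, log axis) of 5 member probe sets on each array: blue circles are the continuous experiment from control to 360 min, red squares the pulse experiment from control to 60 min with harvest 24 h after washing, and bars are group means. All 12 pulsed Penk arrays lie above all 4 pulse controls, and the Sst controls of the continuous experiment run between 409 and 4097.

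Penk encodes proenkephalin, the precursor of the enkephalins, which act on delta and mu opioid receptors. Its probe set S49491_s_at had signals of 3712, 7758, 6798 and 2486 after the 10 min pulse, 5087, 5945, 3433 and 3328 after 30 min, and 4500, 5911, 3089 and 5354 after 60 min, against 921, 1656, 1321 and 1191 in the pulse controls. Every pulsed array lay above every control, and the 3 pulse lengths overlapped one another. The difference was 1.86 (SE 0.39, adjusted p = 0.0112) after 10 min, 1.74 (adjusted p = 0.0248) after 30 min and 1.83 (adjusted p = 0.0139) after 60 min. Their mean was 1.81 (SE 0.32, adjusted p = 0.00155), a 3.51-fold rise.

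The mean Penk rise passed in all 28 alternatives tried, between 1.67 and 1.94. The single pulse lengths were less firm: without replicate 2 of its own group the 10 min value was 1.63 (adjusted p = 0.0633). The 30 min call was lost without control 1 (1.60, adjusted p = 0.0941), control 3 (1.77, adjusted p = 0.0736), control 4 (1.72, adjusted p = 0.08), replicate 1 (1.66, adjusted p = 0.108) or replicate 2 (1.59, adjusted p = 0.103) of the 30 min group. The 60 min call was lost without control 1 (1.69, adjusted p = 0.0559), control 4 (1.81, adjusted p = 0.0571), replicate 1 (1.84, adjusted p = 0.0627) or replicate 2 (1.70, adjusted p = 0.0673) of the 60 min group.

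In the second pulse set, with no replicates, Penk stood at 4668, 4860 and 4723 after 10, 30 and 60 min, against 1402 in its control. Under continuous NMDA the 3 cultures, numbered 2, 3 and 4, gave 3352, 1566 and 2202 at 360 min, against 1783, 933 and 1190 in control. Each culture was higher than its own control, by 0.70 to 0.88, yet the groups overlap because the cultures differ. The difference of 0.81 at 360 min did not pass (SE 0.43, adjusted p = 0.706; with the block 0.0878). At 30 min of continuous NMDA the difference was 0.02.

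The other Penk probe set, rc_AI009300_at, did not follow. It had 448, 417, 1204 and 831 after the 10 min pulse, against 463, 417, 730 and 580 in the pulse controls. Its mean pulse difference was -0.06 (SE 0.40, adjusted p = 0.993). Its signals after the pulses overlap the controls at all 3 lengths, so the Penk rise rests on S49491_s_at alone.

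Pdyn encodes prodynorphin, the precursor of the dynorphins, which act on kappa opioid receptors. Its 1 probe set had 443, 536, 1241 and 937 after the 10 min pulse, against 532, 138, 222 and 227 in the controls, so that control 1 lay among the pulsed arrays. The difference of 1.33 after 10 min did not pass (SE 0.51, adjusted p = 0.377), nor did the mean over pulses of 0.94 (SE 0.42, adjusted p = 0.527). In the second pulse set Pdyn had 480, 467 and 259 after 10, 30 and 60 min, against 125 in its control.

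Pnoc encodes prepronociceptin, the precursor of nociceptin, whose receptor is related to the opioid receptors. Probe set S79730_s_at had 2455, 4551, 4373 and 2019 after the 10 min pulse, 2109, 2749, 1840 and 2350 after 30 min and 2156, 4562, 1987 and 3099 after 60 min, against 1820, 1086, 1191 and 763 in control. All 12 pulsed arrays lay above the highest control. Its mean rise over the pulses was 1.18 (SE 0.31, adjusted p = 0.0415), or 2.26-fold, while the 10 min value of 1.40 passed only with the block (adjusted p = 0.0624, with the block 0.0384).

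The mean Pnoc call rests on many single arrays. It was lost without control 2 (1.15, adjusted p = 0.182), control 3 (1.19, adjusted p = 0.132) or control 4 (0.99, adjusted p = 0.312), without replicate 2 of the 10 min group (1.12, adjusted p = 0.0744), without replicates 1 (1.19, adjusted p = 0.0651), 2 (1.14, adjusted p = 0.0769), 3 (1.21, adjusted p = 0.0513) or 4 (1.17, adjusted p = 0.0719) of the 30 min group, and without replicate 2 of the 60 min group (1.10, adjusted p = 0.066). At 360 min of continuous NMDA the arrays had 1528, 2926 and 1816, against 1244, 1257 and 1384 in control. They do not overlap the controls, but the difference of 0.61 did not pass (SE 0.25, adjusted p = 0.51). The highest of them, 2926, belongs to replicate 3, which stood apart from its run, and no value without it is given. In the second pulse set Pnoc stood at 1776, 1482 and 1370 after 10, 30 and 60 min, against 953 in its control. The other Pnoc probe set, X97374exon_g_at, differed by 0.43 over the pulses (adjusted p = 0.773).

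Tac1 encodes protachykinin, from which substance P and neurokinin A are cut. Probe set X56306_s_at had 751, 1166, 2113 and 1330 after the 10 min pulse, 1074, 873, 1334 and 817 after 30 min and 923, 674, 785 and 975 after 60 min, against 347, 304, 793 and 371 in control. Control 3 stood apart from the other controls and overlapped the pulsed arrays. Tac1 rose by 1.44 after 10 min (SE 0.36, adjusted p = 0.0368; 2.71-fold). The values of 1.14 after 30 min (adjusted p = 0.211) and 0.88 after 60 min (adjusted p = 0.566) did not pass, and the mean over pulses of 1.15 did (SE 0.29, adjusted p = 0.0346; 2.22-fold).

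The 10 min Tac1 call was lost without control 1 (1.36, adjusted p = 0.107), 2 (1.30, adjusted p = 0.174) or 4 (1.38, adjusted p = 0.134), or without replicate 2 (1.47, adjusted p = 0.0912), 3 (1.20, adjusted p = 0.0829) or 4 (1.42, adjusted p = 0.0927) of its own group. Without the arrays that stood apart it was 1.20 (adjusted p = 0.0674). The mean call was lost without control 1 (1.07, adjusted p = 0.154), 2 (1.02, adjusted p = 0.219) or 4 (1.10, adjusted p = 0.171), replicate 2 of the 10 min group (1.16, adjusted p = 0.0531), replicate 1 (1.14, adjusted p = 0.0631) or 3 (1.11, adjusted p = 0.0538) of the 30 min group, or replicate 1 of the 60 min group (1.13, adjusted p = 0.0619). In the second pulse set Tac1 X56306_s_at stood at 805, 1310 and 1678 after the 3 lengths, against 573 in its control. The other Tac1 probe set, M15191_s_at, was 0.70 higher over the pulses and did not pass (adjusted p = 0.598).

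Vgf encodes a granin-like secretory protein that nerve growth factor induces and that is cut into several peptides. Its signals were 41538, 30821, 85328 and 17270 after the 10 min pulse, 43065, 31030, 36548 and 23349 after 30 min and 39417, 28106, 34300 and 40692 after 60 min, against 21650, 3572, 20104 and 7319 in control. The controls spread by about as much as the difference itself: replicate 4 after 10 min lay below controls 1 and 3, and the other 11 pulsed arrays lay above every control. The mean rise was 1.75 (SE 0.42, adjusted p = 0.0251), or 3.36-fold, and it was lost without control 2 (1.24, adjusted p = 0.219) or control 4 (1.58, adjusted p = 0.158). In the second pulse set Vgf stood at 26746, 27434 and 29717 after 10, 30 and 60 min, against 4202 in its control.

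Within each of the 4 culture numbers Vgf was higher after every pulse than in control, by 0.94 to 3.09 after 10 min, 0.86 to 3.10 after 30 min and 0.77 to 2.95 after 60 min. With culture number as a block the 10 min value of 1.83 (adjusted p = 0.0888 without it) and the 60 min value of 1.76 (adjusted p = 0.136 without it) passed at 0.0207 and 0.0293, and the 30 min value of 1.65 did not (0.0523). With culture date as a block the adjusted p was 0.0572 after 10 min and 0.0816 after 60 min, and neither passed, while the mean of 1.75 did (adjusted p = 0.0156).

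Vgf was also the member with the clearest difference under continuous NMDA. Its signal was 14732, 6549 and 15517 at 360 min and 9854, 4919 and 7036 at 180 min, against 4901, 3934 and 3894 in control. All 3 arrays at 360 min lay above all 3 controls. The difference at 360 min was 1.42 (SE 0.35), or 2.68-fold, with an adjusted p of 0.0974, and with culture number as a block it passed (adjusted p = 0.00858). Without replicate 3 at 360 min, which stood apart from its run, it was 1.82 and passed without the block (adjusted p = 0.00641). At 180 min the difference was 0.72 and did not pass.

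Sst encodes preprosomatostatin, whose peptide slows release from other neurons and marks a class of cortical interneurons that contact dendrites. Probe set K02248cds_s_at had 34216, 32477, 9896 and 9722 after the 10 min pulse, 29625, 19603, 5262 and 17525 after 30 min and 29782, 19222, 4713 and 18754 after 60 min, against 9921, 5845, 3346 and 2424 in control. The groups overlap, and each culture after each pulse lay above its own control, by 1.55 to 2.46 after 10 min, 0.64 to 2.82 after 30 min and 0.49 to 2.92 after 60 min. The mean difference of 1.77 (3.41-fold) did not pass across arrays (SE 0.52, adjusted p = 0.109) and passed with culture number as a block (SE 0.30, adjusted p = 0.0017). The block values also passed after 10 min (1.94, adjusted p = 0.00509), 30 min (1.69, adjusted p = 0.021) and 60 min (1.67, adjusted p = 0.0185). With culture date as a block all of these passed, with adjusted p of 0.00386 for the mean and 0.0135, 0.0447 and 0.0444 after 10, 30 and 60 min. Without the block the mean passed when replicate 3 of the 30 min group (1.94, adjusted p = 0.0382) or of the 60 min group (1.95, adjusted p = 0.0277) was left out.

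The other Sst probe set, M25890_at, had 69804, 57208, 671 and 26562 after the 10 min pulse, against 30693, 14633, 6406 and 8530 in control. Replicate 3 of the 10 min pulse had the lowest sum of neuron markers in the pulse experiment. It was below its own culture's control in this probe set (671 against 6406) and above that control in K02248cds_s_at (9896 against 3346). The mean pulse difference of M25890_at was 0.94 (SE 0.88, adjusted p = 0.866; with the block 0.592). Without the 2 arrays that stood apart it was 1.62 (adjusted p = 0.0872), and 1.46 with the block as well (adjusted p = 4.73e-05). The part of those arrays' quality in the difference was not tested. In the second pulse set, M25890_at stood at 31974, 27768 and 25432 after 10, 30 and 60 min, against 9627 in its control, and K02248cds_s_at at 8649, 7624 and 8622, against 3290.

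Culture number accounted for most of the spread of somatostatin under continuous NMDA. The control arrays of cultures 2, 3 and 4 had 3797, 409 and 4097 in K02248cds_s_at, and at 360 min they had 5885, 613 and 8406. Culture 3 was low at all 6 times, between 367 and 782. Number accounted for 91.5% of the sum of squares of K02248cds_s_at in the continuous experiment and 91.8% in the crossed experiment, and for 46% in the pulse experiment, where group accounted for 42.8%. Npy, another interneuron peptide, had 93.5% and 85.5% with number in the continuous and crossed experiments. At 360 min somatostatin was higher in each of the 3 cultures, by 0.50 to 1.02, a difference of 0.71 that did not pass (SE 1.21, adjusted p = 0.937; with the block 0.235).

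**Figure D2:**
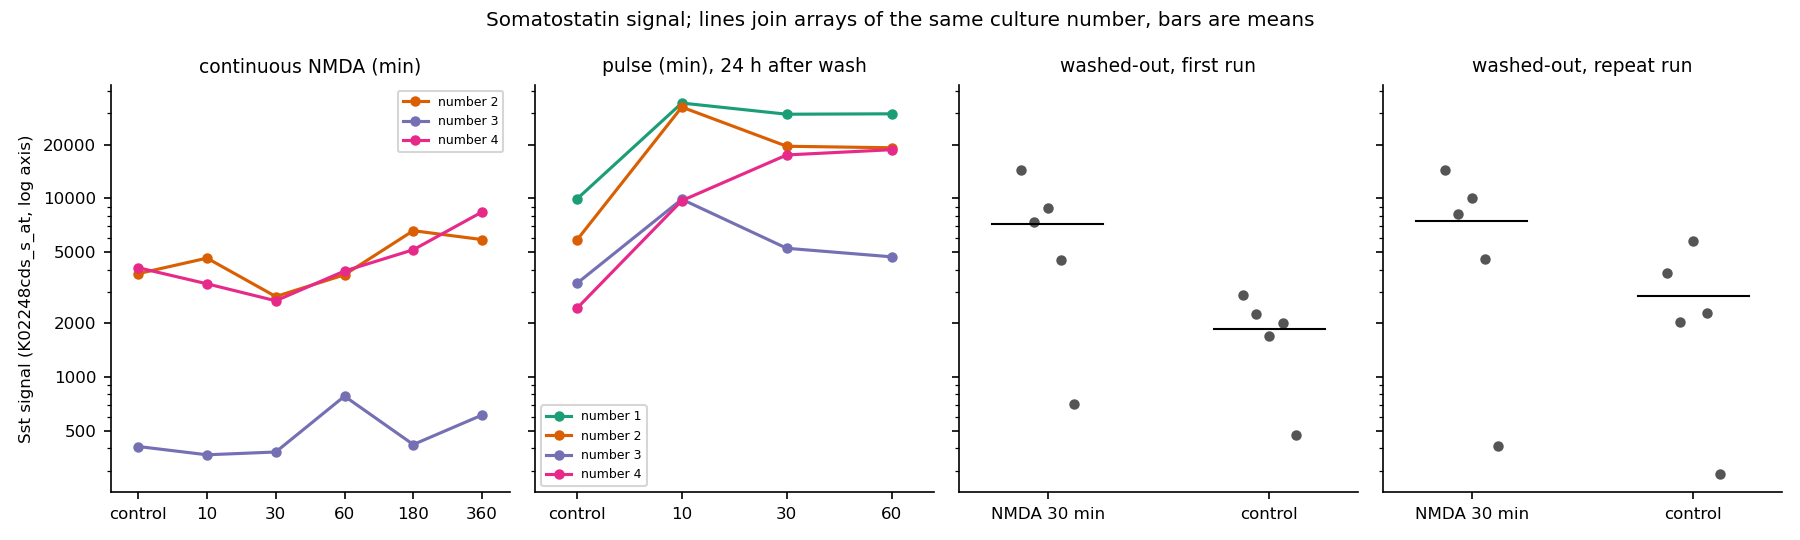
Sst signal (K02248cds_s_at, linear intensity on a log axis) in the continuous experiment, the pulse experiment and both runs of the washed-out experiment; lines join arrays of the same culture number, dots are single arrays and black bars are group means. Culture 3 of the continuous experiment stays between 367 and 782, and each pulsed culture lies above its own control.

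Npy encodes the neuropeptide Y precursor, Cck the cholecystokinin precursor and Avp the vasopressin precursor. Npy had 4416, 10009, 3305 and 4653 after the 10 min pulse, against 5200, 9680, 5473 and 3252 in control, and a mean pulse difference of 0.17 with a 95% interval from -0.58 to 0.92. Cck had 9358, 10991, 806 and 2677 after the 10 min pulse, against 4796, 7888, 3408 and 5147 in control, and a mean pulse difference of 0.02 with an interval from -1.30 to 1.35. Cck pulsed arrays lay on both sides of the controls and, after the 60 min pulse, replicate 3 was at 1156 while the other 3 were at 9532 to 10086. The 2 tested Avp probe sets differed by 0.06 (M25646_at) and 0.14 (M64785_g_at), and the third, M64785_at, lay under the floor on low signals in all runs but the repeat run of the washed-out experiment.

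**Figure D3:**
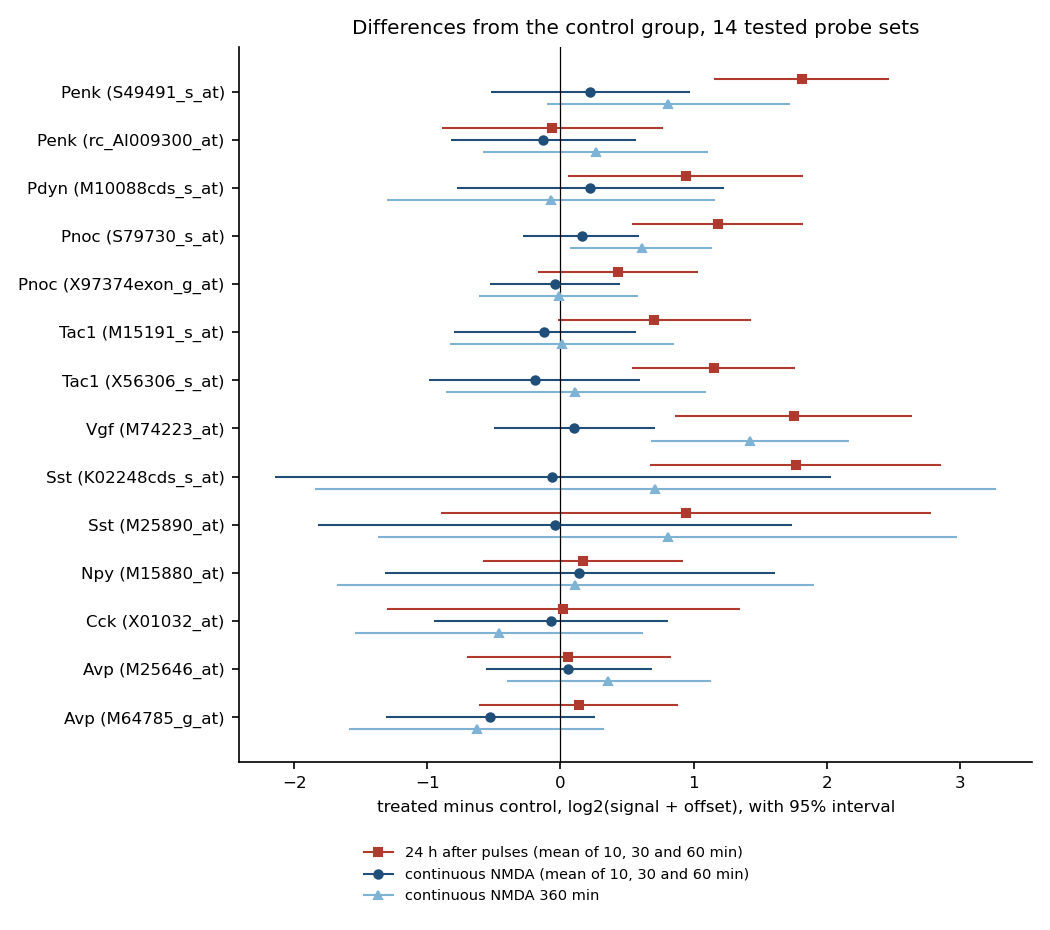
Difference from control on the log2(signal + offset) scale with its 95% interval for the 14 tested member probe sets: red squares are the mean over the 3 pulses, dark blue circles the mean of continuous NMDA at 10, 30 and 60 min, and light triangles continuous NMDA at 360 min. The pulse values of Penk (1.81), Vgf (1.75) and Sst K02248cds_s_at (1.77) lie furthest to the right, and the continuous mean of Penk is 0.22.

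The pulse and continuous experiments were then set against each other as differences from their own controls, in a joint fit. Exposure length is matched in this comparison and the time of harvest is not, since continuous cultures were taken while NMDA was present and pulsed ones 24 h after it. Averaged over 10, 30 and 60 min, all 14 members had larger differences after pulses, with a median of 0.75, beside -0.04 over all probe sets. Some of these were small, such as 0.03 for Npy and 0.10 for Cck. Without the arrays that stood apart 12 of 14 were larger (median 0.74, beside -0.09 over all). With the block as well, 13 of 14 were. Without the block no member passed in the mean, where 0.113% of all probe sets did, nor at 10 min (0.113% of all), 30 min (0.113%) or 60 min (0% of all). At an unadjusted p under 0.05, 4 members differed in the mean, 4 at 10 min, 3 at 30 min and 3 at 60 min.

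With culture number as a block in each experiment, 3 members passed in the mean, where 1.13% of all probe sets did. Penk differed by 1.58 (SE 0.32, adjusted p = 0.0107), Sst K02248cds_s_at by 1.82 (SE 0.38, adjusted p = 0.015) and Tac1 X56306_s_at by 1.33 (SE 0.31, adjusted p = 0.0233). Without the block their adjusted p was 0.223, 1 and 0.528 in that order. Vgf (1.64, adjusted p = 0.0589) and Pnoc S79730_s_at (1.01, adjusted p = 0.228) did not pass with the block. With the block and the arrays that stood apart removed, Penk (1.48, adjusted p = 0.00241), Sst K02248cds_s_at (1.75, adjusted p = 0.0083), Sst M25890_at (1.57, adjusted p = 0.00241), Vgf (1.66, adjusted p = 0.0134) and Tac1 X56306_s_at (1.29, adjusted p = 0.0317) passed, 5 members where 2.38% of all probe sets did. With culture date as a block the same 3 probe sets as with culture number passed in the mean (1.13% of all), Penk with an adjusted p of 0.0114, Sst K02248cds_s_at with 0.029 and Tac1 with 0.0392.

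By length, Sst (1.99, adjusted p = 0.0349) and Tac1 (1.54, adjusted p = 0.0374) passed with the block at 10 min, where 1.36% of all probe sets passed. Penk (1.71, adjusted p = 0.0393) and Sst (2.06, adjusted p = 0.0393) passed at 30 min (0.452% of all), and Penk (1.68, adjusted p = 0.039) at 60 min (0.566% of all). The 10 min calls were lost once arrays that stood apart were also removed, where 0 members and 0.113% of all probe sets passed and 7 members had an unadjusted p under 0.05: Sst K02248cds_s_at was 2.05 (SE 0.55, adjusted p = 0.0842) and Tac1 1.5 (SE 0.48, adjusted p = 0.172). With culture date as a block the calls at 10 min (adjusted p = 0.0593 for Sst and for Tac1) and at 30 min (0.0501 for Penk, 0.121 for Sst) were lost, and Penk at 60 min passed (0.0377). Set against continuous NMDA at 360 min, the pulse mean differed by 0.99 for Penk (adjusted p = 0.998) and by 0.32 for Vgf, with an interval from -0.96 to 1.60. No member and 0% of all probe sets passed in that comparison, and 0 members had an unadjusted p under 0.05.

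Sample labels of the washed-out experiment number its replicates and give no culture date. That experiment again harvested cells 24 h after 30 min of NMDA, with 5 arrays in each group of a run. In its first run both Pnoc probe sets rose, by 2.10-fold and 1.73-fold. The differences of Penk S49491_s_at (0.43), Vgf (0.27) and Tac1 X56306_s_at (-0.43) did not pass, and somatostatin differed by 1.60 with a wide error. In the first run 3 members passed, where 13.9% of all probe sets did, and in the repeat run none did, where 0.226% of all did and 4 members had an unadjusted p under 0.05. Without control replicates 3 and 4 of the repeat run, 1 member passed (1.81% of all).

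Pnoc S79730_s_at had 2516, 2137, 1835, 2448 and 1001 after NMDA, against 698, 844, 974, 990 and 892 in control in the first run, with no overlap. It rose by 1.07 (SE 0.23, adjusted p = 0.00789). Pnoc X97374exon_g_at had 4308, 3841, 3284, 4435 and 3160, against 2293, 1969, 1927, 2340 and 2257, and rose by 0.79 (SE 0.14, adjusted p = 0.0025). In the repeat run without the 2 control arrays it rose by 0.76 (adjusted p = 0.0166), and S79730_s_at was 1.00 higher and did not pass (adjusted p = 0.0859). With all repeat arrays S79730_s_at was 1.10 higher (adjusted p = 0.252).

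Penk S49491_s_at had 3559, 2675, 3202, 2826 and 4047 after NMDA in the first run, against 2242, 2323, 1979, 2098 and 3460 in control. The difference of 0.43 did not pass (SE 0.19, adjusted p = 0.149), and rc_AI009300_at passed at 0.69 (SE 0.22, adjusted p = 0.0434). In the repeat run the Penk difference in S49491_s_at was 1.35 with all arrays (SE 0.48, adjusted p = 0.196) and 0.31 (adjusted p = 0.559) without control replicates 3 and 4, which had 517 and 288 where the other controls had 2247 to 3746. Without control replicate 5 of the repeat run it was 1.73 (adjusted p = 0.048).

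Sst K02248cds_s_at had 14527, 7350, 8846, 4532 and 708 after NMDA in the first run, against 2886, 2244, 1704, 2009 and 472 in control. Of the 5 NMDA arrays 4 lay above every control, and replicate 5 was low in both groups. The difference of 1.60 did not pass (SE 0.80, adjusted p = 0.192), nor did 1.62 in M25890_at (adjusted p = 0.166). In the repeat run the same samples gave 14378, 8142, 10022, 4592 and 413 after NMDA, against 3835, 2038, 5784, 2289 and 287 in control.

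Gad1, which makes the transmitter of interneurons and was not a member, differed alongside somatostatin here, by 1.08 (SE 0.63, adjusted p = 0.271). Fitted with replicate number as a block, that first-run Gad1 difference passed (SE 0.14, adjusted p = 0.000209). In the repeat run, leaving out control replicates 3 and 4, Gad1 differed by 1.79 unblocked (adjusted p = 0.133). The block fit of those repeat-run arrays gave 1.72, which passed (adjusted p = 0.00464). Replicate numbers are not shown to pair the samples of this experiment. Gad1 had 8227, 5376, 5562, 3754 and 771 after NMDA in the first run, against 3140, 1898, 2190, 2059 and 588 in control. In the pulse experiment, where somatostatin was also higher, Gad1 had 8920, 9070, 472 and 6998 after 10 min, against 11576, 5668, 1706 and 3907 in control, and its mean pulse difference was -0.02 (SE 0.63, adjusted p = 0.993). That mean included the 2 pulse arrays that stood apart, at 472 (replicate 3, 10 min) and 4021 (replicate 4, 60 min). The repeat array of the latter had 7888. No Gad1 difference without these arrays is given. Slc32a1 is the transporter that loads that transmitter into vesicles. By probe set AF030253_at it was lower on each of the 12 pulsed arrays than in the control of the same number. Its probe set AF030253_at had 6228, 5768, 819.9 and 4394 after 10 min, 5895, 4762, 3022 and 4954 after 30 min and 5621, 4472, 3451 and 4713 after 60 min, against 8198, 7668, 3927 and 8089 in control. The mean pulse difference of -0.69 did not pass (SE 0.41, adjusted p = 0.744, with the block 0.345), nor did -0.44 in rc_AA996551_s_at (adjusted p = 0.773). That other probe set was not lower on every pulsed array. Number 1 had 461.2 after 10 min and 577.9 after 30 min, against 445.7 in its control. Number 2 had 654.9 after 30 min, against 464. For washed-out NMDA in the first run, neither Slc32a1 probe set passed in the block fit. The differences were 0.30 in AF030253_at (adjusted p = 0.112) and 0.22 in rc_AA996551_s_at (adjusted p = 0.43). The part of interneuron cells in the somatostatin values was not tested.

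For NMDA against control without the replicate block, Vgf and Tac1 did not pass in either run of the washed-out experiment. Vgf had 25131, 27122, 23942, 34928 and 26405 after NMDA in the first run, against 17390, 24141, 18456, 28496 and 26572 in control, a difference of 0.27 (adjusted p = 0.392). Tac1 X56306_s_at had 649, 669, 519, 3038 and 4658, against 1258, 1516, 1168, 1529 and 4660, a difference of -0.43 (SE 0.77, adjusted p = 0.729). Replicate 5 was high in Tac1 in both groups.

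With nicotine present in both arms, 1 member passed in the first run (Pnoc X97374exon_g_at, 0.60, adjusted p = 0.0297; 2.04% of all probe sets passed). Without the nicotine arrays of replicate 5 that stood apart in that run, 3 members passed (2.38% of all), namely Pnoc X97374exon_g_at (0.75, adjusted p = 0.00932), Pnoc S79730_s_at (1.06, adjusted p = 0.0119) and Penk S49491_s_at (0.84, adjusted p = 0.0114). In the repeat run 0 members passed (0% of all; 2 members at an unadjusted p under 0.05), and without the arrays that stood apart the same probe set did (0.61, adjusted p = 0.0216; 2.83% of all).

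The 30 min pulse and the washed-out NMDA group share their dose, exposure and harvest time, and the difference between them was fitted after their values had been seen. Penk was 1.31 higher after the pulse than in the first washed-out run (adjusted p = 0.522) and 1.44 higher than in the repeat run without the arrays that stood apart (interval 0.56 to 2.32, adjusted p = 0.251). No member passed against the first run (0% of all probe sets passed), the repeat run (0% of all) or the repeat run without those arrays (0.113% of all); at an unadjusted p under 0.05 the counts were 2, 1 and 3 in that order. The Sst K02248cds_s_at difference in the last of these was -0.08, with an interval from -2.80 to 2.65, which leaves differences of either sign.

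**Figure D4:**
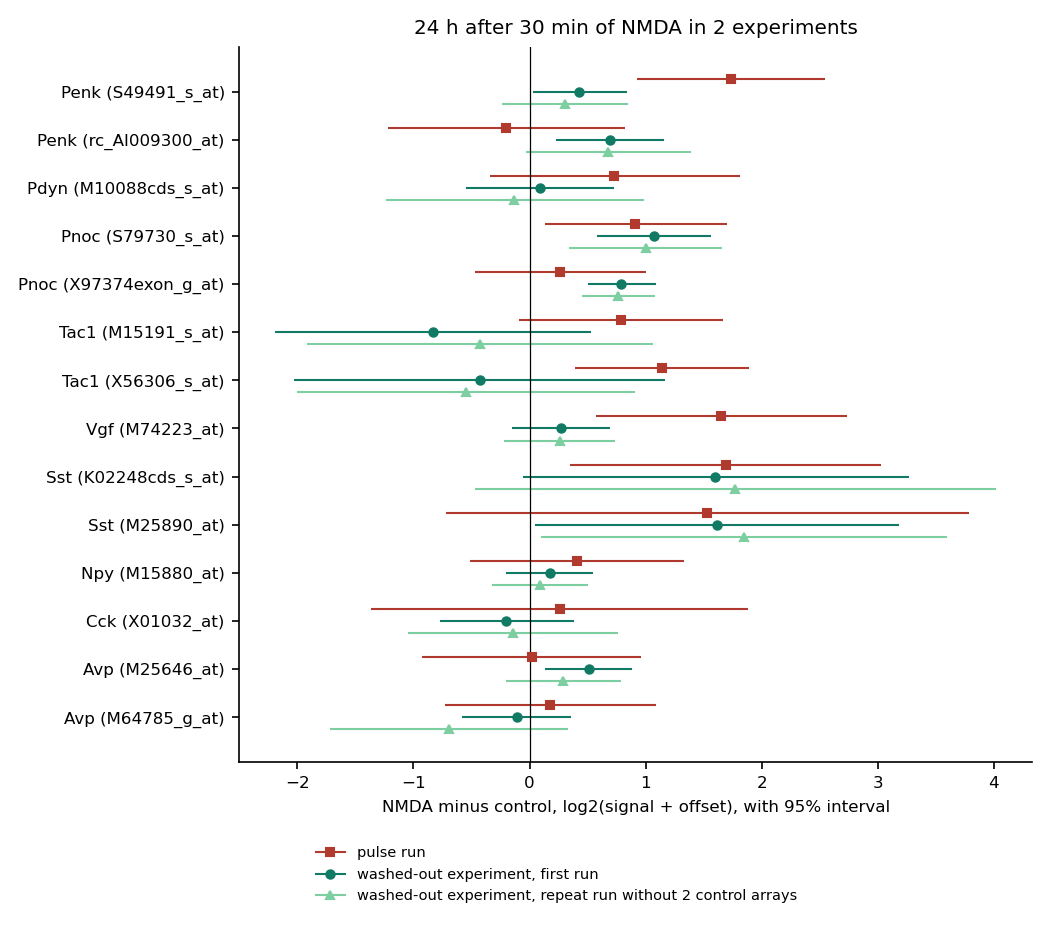
Difference from control on the log2(signal + offset) scale, with its 95% interval, 24 h after 30 min of NMDA: red squares are the pulse experiment, dark green circles the first run of the washed-out experiment, and light green triangles its repeat run without 2 control arrays. Penk S49491_s_at lies at 1.74 after the pulse and at 0.43 and 0.31 in the washed-out runs, while the Sst K02248cds_s_at values are 1.69, 1.60 and 1.77.

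The treatments other than NMDA gave no call for any member with limma. Nicotine for 18 h in the crossed experiment called 0 of the members and 0% of all probe sets, with 0 members at an unadjusted p under 0.05. Nicotine for 18 h followed by 24 h without it called 0 members and 0% of all, with 2 members at an unadjusted p under 0.05. Brief nicotine (15 min) called 0 members and 0% of all probe sets, 4R present for 18 h called 0% of all, and 4R that had been washed off called 0% of all. In these 3 comparisons 0 members had an unadjusted p under 0.05. Penk had 1128, 1250 and 1285 after 15 min of nicotine, against 1122, 1208 and 1061 in control, and 920, 758 and 1430 after 18 h of 4R, against 1535, 1240 and 1266 in control. After 18 h of 4R, 2 of 14 members were higher than control, with a median of -0.21.

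In the crossed experiment NMDA stayed on for 60 min until harvest, as at the 60 min time of the continuous experiment. No member passed for NMDA alone, where 0.905% of all probe sets did, or for NMDA on top of nicotine, where 1.02% did. At an unadjusted p under 0.05 the members counted 2 for NMDA alone and 0 on top of nicotine. Without the 2 arrays that stood apart no member passed for NMDA alone (1.24% of all), and 0 had an unadjusted p under 0.05. Penk had 1329, 2110 and 1744 after NMDA, against 1508, 2825 and 1246 in control, a difference of -0.04 (interval -0.64 to 0.56). Vgf had 4326, 5047 and 3798, against 3796, 3926 and 3409, a difference of 0.23 (interval -0.13 to 0.59). The median over members was -0.04.

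Control levels of the members differed between runs, which were processed separately. Vgf was at 3409 to 3926 in the crossed controls, 3894 to 4901 in the continuous controls, 3572 to 21650 in the pulse controls and 17390 to 28496 in the first-run washed-out controls. Its 3 controls for 4R washed off had 8233, 20699 and 24070. Culture and run cannot be told apart between experiments, and no difference between runs was tested.

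**Figure D5:**
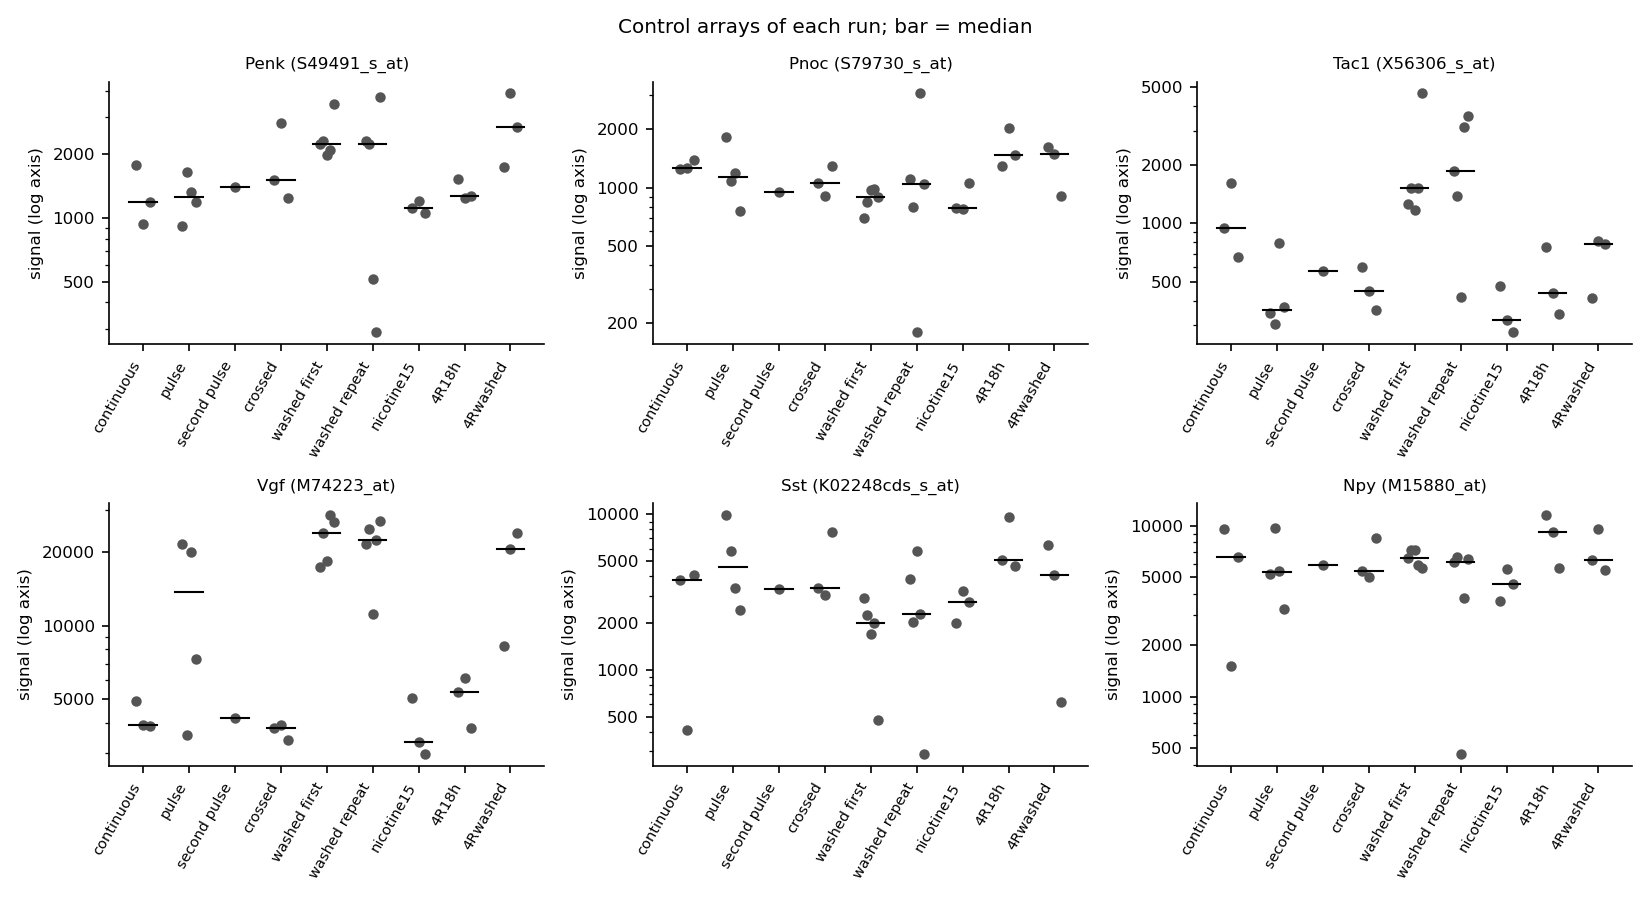
Signal (linear intensity, log axis) of the control arrays of each run for Penk, Pnoc, Tac1, Vgf, Sst and Npy; points are arrays and bars are medians. Vgf controls lie at 3409 to 3926 in the crossed run and at 17390 to 28496 in the first washed-out run.

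Over the 17 treated groups of the replicated runs, the differences of members that passed were also set beside those of other genes, among 745 probe sets compared. Groups of a run share their controls, so these correlations describe the pattern only. Penk S49491_s_at and Pnoc S79730_s_at had a Pearson correlation of 0.93, Penk and Vgf 0.84, and Penk and Tac1 0.52. The genes outside the family with the most similar pattern to Penk were Nptx2 (0.94), Il6r (0.90) and Camk2d (0.87), and those to Pnoc were Nptx2 (0.94), Il6r (0.86) and Tgfb3 (0.83). Vgf was most like Bdnf (0.94), Crem (0.90) and Il6r (0.85), and Tac1 most like Bdnf (0.86), Adrb1 (0.82) and Mif (0.81).

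The other genes of the peptide system on the array gave no call for the pulse mean. Of 40 other peptide and granin genes listed, 8 were on the array, 3 of their probe sets were tested and 0 passed with limma, with a median of 0.33. Of 43 peptide receptor genes, 21 were on the array, with 14 probe sets tested, 0 passed and a median of 0.02. None of 14 processing enzymes had a probe set named here. Of the activity-regulated transcription factors, 11 of 13 genes were on the array, and 9 of 17 tested probe sets (of Nr4a3, Crem, Nr4a1, Fos, Jun and Junb) rose for the pulse mean, with a median of 1.48. Fos X03347cds_g_at, which encodes a partner in AP-1, rose by 2.82 (SE 0.37, adjusted p = 0.000113), and Crem S66024_g_at, a relative of the cyclic AMP response element binding protein, rose by 2.20 (SE 0.36, adjusted p = 0.00104). Under continuous NMDA for 60 min Nr4a1 U17254_g_at, an orphan nuclear receptor, was higher by 3.12 (SE 0.67, adjusted p = 0.0378). In that comparison 0 of 14 members and 0.679% of all probe sets passed.

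Markers of other cells showed no call for the pulse mean. The astrocyte list (13 probe sets for 4 of 7 genes) summed to 29556 to 46108 after the 10 min pulse, 27049 to 48861 after 30 min and 32147 to 49182 after 60 min, against 28678 to 48619 in control. The interneuron list, 3 probe sets for 2 of 7 genes, summed to 1669 to 15609, 5681 to 13301 and 6228 to 13863 after the same pulses, against 6312 to 20220 in control, and these ranges overlap at each pulse length. Of its 3 probe sets 0 were higher than control in the pulse mean, with a median difference of -0.44 beside -0.07 over all probe sets, and 0 passed. These values include the pulse arrays that stood apart. Oligodendrocyte markers (4 of 6 genes) summed to 3454 to 10181 after the 10 min pulse, against 3813 to 10251 in control, and 1 microglia gene of 6, Itgam, was at 50 to 471, against 162 to 314 in control. None of 7 endothelial and meningeal markers had a probe set named here.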

How the data were processed

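Total RNA of rat cortical neuron cultures was measured on Affymetrix arrays. The authors deposited a table of intensity per probe set, and no software for it is given in the sources used here. In every run the mean of each array, with 2% trimmed at each end, was 2503 to 2513, so arrays had been scaled by the authors before deposit and were scaled no further. Of 1322 probe sets 59 controls were left out. The platform annotation gave 1 gene to 1137 probe sets, several to 8 and none to 118, and a gene name was used only where it was the single one.

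Signals became log2 values after adding an offset, the run's 10th percentile of positive values. Probe sets whose mean fell under the 30th percentile were not tested, so 884 were. Group means were fitted over all groups of a run with limma 3.58.1 (R 4.3.3) with an intensity trend, after a test on simulated data. P-values are 2-sided, adjusted by Benjamini-Hochberg over all probe sets of a contrast, at a threshold of 0.05. Tables and figures used Python 3.11.15, pandas 2.3.3, numpy 2.4.6 and matplotlib 3.10.9. An array stood apart where its median correlation lay over 3 scaled MADs (median absolute deviations) below the run's median. The repeat run of the washed-out experiment, made per the labels after an oven failure, was the main one, and the first run the alternative; the report gives both.

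Culture numbers were used as a block. The labels give same-numbered samples of the pulse, crossed and 18 h 4R experiments a shared culture date; pulse numbers 3 and 4 share theirs, 1 of them with an added suffix, so a block by date was also fitted. In the continuous experiment all 45 same-numbered pairs had correlated deviations over 0.1 (lowest 0.12, median 0.41). The numbers of the washed-out, 15 min nicotine and washed 4R experiments did not meet this. Every member probe set is reported, with per-array values for those that passed in any contrast, and the 3 genes most similar to each called probe set. Of other lists, some genes that passed are described above. Among the neuron markers Nefl also passed as higher after the 10 min pulse and in the pulse mean, with and without the block. It was 1 of 20 probe sets tested, where 2.26% and 2.71% of all passed without the block. The peptide receptor gene Npy1r passed for washed-out NMDA with the block (1.38, adjusted p = 0.041). Members, lists and tests were chosen with earlier results of these data known. Alternatives were another offset, filter, centring, block, sample set and run, and leaving out each array.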

Additional observations from a re-analysis of the deposited data

Results flagged for a closer look

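Over 15 member probe sets in 12 groups of 4 or 5 arrays, 180 sets of signals, 19 had 1 signal far from the rest of its group. Chance gives about 5% of independent groups of normally distributed values. These are linear signals, which need not be normal, and they are not independent, since the washed-out samples were hybridized in both runs. Replicate 5 of the washed-out experiment was high in Tac1 X56306_s_at in 5 groups: 4660 in the first-run control (nearest array 1529), 4894 in first-run nicotine (1530), 5843 in first-run nicotine with NMDA (1701), 4203 in repeat-run nicotine (1100) and 5214 in repeat-run nicotine with NMDA (1202). It was also high in Tac1 M15191_s_at, at 21274 in the first-run control (11204) and 22546 in repeat-run nicotine (6920), and in Penk S49491_s_at, at 3460 in the first-run control (2323), 3598 in first-run nicotine (1899) and 3844 in repeat-run nicotine (1935).

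Penk rc_AI009300_at was high in control replicate 3 of the repeat run (1345, nearest 415) and in replicate 2 of nicotine with NMDA there (732, nearest 488). The dim Avp probe set M64785_at was high in first-run control replicate 2 (157, nearest 58), first-run nicotine replicate 1 (233, nearest 115), first-run NMDA replicate 5 (70, nearest 33) and repeat-run nicotine with NMDA replicate 4 (139, nearest 52). Vgf was at 34928 in first-run NMDA replicate 4 (nearest 27122). In the pulse experiment, Tac1 X56306_s_at was at 793 in control replicate 3 (nearest 371) and Cck at 1156 in replicate 3 of the 60 min pulse (nearest 9532).

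Differences from control were larger after pulses than under continuous NMDA of the same length, with culture number as a block, for Penk at 30 min (1.71), at 60 min (1.68) and in the mean (1.58), for Sst K02248cds_s_at at 10 min (1.99), at 30 min (2.06) and in the mean (1.82), and for Tac1 X56306_s_at at 10 min (1.54) and in the mean (1.33). The values at 10 min did not pass with the arrays that stand apart removed as well (2.05, adjusted p = 0.0842, for Sst K02248cds_s_at and 1.5, adjusted p = 0.172, for Tac1 X56306_s_at), nor with culture date as the block (adjusted p = 0.0593 for both), where those at 30 min did not pass either.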

How the results depend on the processing

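The mean Penk rise over the pulses passed under all 28 alternatives tried for it. Of the other mean calls, Vgf passed in 26 of 28, Tac1 in 19 and Pnoc in 17. Counts of member probe sets past the threshold that moved by over 1.5 times follow, each with the count as reported. For the pulses, with counts of 2, 1, 1 and 4 at 10 min, 30 min, 60 min and in the mean, no filter gave 1 at 10 min and 2 in the mean, median centring 2 at 30 min, and a fit of only the groups compared 0 at 10 min. The share over all probe sets is not given for these settings. The replicate block gave 5, 2 and 3 at 10, 30 and 60 min (2.94%, 2.26% and 2.6% of all). Leaving out the arrays that stand apart gave 1 at 10 min (2.6% of all probe sets), and together with the replicate block 6, 5 and 4 (5.77%, 4.86% and 4.3% of all). The repeat arrays with the replicate block, an alternative chosen after the data were seen in which 3 arrays bring new values, gave 5, 3 and 3 (3.96%, 2.94% and 3.05% of all). The replicate block by culture date, chosen likewise, gave 4, 2 and 2 (2.71%, 2.15% and 2.6% of all). For continuous NMDA at 360 min (0), the replicate block, leaving out the arrays that stand apart, and both together gave 1 each (1.13%, 1.81% and 2.26% of all probe sets). For pulse minus continuous (0 throughout), the replicate block gave 2, 2, 1 and 3 at 10 min, 30 min, 60 min and in the mean (1.36%, 0.452%, 0.566% and 1.13% of all). Without the arrays that stand apart as well it gave 0 at 10 min (0.113% of all), 4 at 30 min (1.13%), 1 at 60 min (0.566%) and 5 in the mean (2.38%). The replicate block by culture date gave 0, 0, 1 and 3 (0.226%, 0.226%, 0.566% and 1.13% of all).

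For washed-out NMDA (0), the replicate block gave 1 (1.02% of all), leaving out the arrays that stand apart 1 (1.81%), both together 4 (6%), the first run 3 (13.9%), the first run without its arrays that stand apart 3 (14.8%), and the first run with the replicate block 8 (23.8%), where Sst K02248cds_s_at passed at 1.60 (adjusted p = 0.000262). In nicotine (0), the same settings apart from the block alone gave 1 (2.83% of all), 4 (6.45%), 1 (2.04%), 3 (2.38%) and 6 (6.79%), where Vgf passed with both together (0.53, adjusted p = 0.0142) and in the first run with the replicate block (0.56, adjusted p = 0.00971), and a fit of only the groups compared 1. The numbers of this experiment are not shown to pair its samples: deviations of 19 of 30 same-numbered pairs in the repeat run and 24 of 30 in the first run correlated over 0.1. The first run with the replicate block was added after the data were seen. There Tac1 M15191_s_at (washed NMDA) differed by -0.83 and Avp M25646_at by 0.51, against 0.98 and -0.64 in the repeat run. By replicate 1 to 5, the repeat-run Tac1 differences were -0.25, -0.85, 3.62, 2.54 and -0.15. Those of Avp M25646_at were 0.14, -0.05, -2.2, -1.9 and 0.81. Control replicates 3 and 4 of that run stood apart. Without them, and without the block, the Avp M25646_at difference was 0.29. The cause was not tested. With the arrays that stand apart removed and culture number as a block, the 30 min pulse exceeded the repeat run by 1.44 for Vgf (adjusted p = 0.0481) and 1.29 for Penk (adjusted p = 0.0385). These 2 members passed where 1.7% of all probe sets did. That comparison was fitted after the values had been seen, and its block uses numbers not shown to pair the washed-out samples. The block changed no other count by over 1.5 times.

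Leaving out 1 array at a time gave counts of 0 to 3 at the 10 min pulse, 0 to 1 at 30 min, 0 to 1 at 60 min, 1 to 5 in the pulse mean, 0 to 1 at 360 min of continuous NMDA and 0 to 1 for washed-out NMDA. Shares over all probe sets are not given for these fits. Dim probe sets limit Avp and Pdyn.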
